A study of Homo sapiens with 5 samples.

Results

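The class I antigen presentation genes HLA-B, HLA-C, HLA-E, HLA-F, B2M, TAP1, TAP2, PSMB8 and PSMB9 were followed through human brain organoids before and after grafting into the mouse brain. These 9 genes were chosen by their role in the pathway, and they are 9 of the 32732 genes listed for every library. Each was read from the matrices aligned to the human genome alone, in all human cells of a library and in cell classes set by marker genes.

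Single cell suspensions of 5 kinds were sequenced with 10x Genomics 3' chemistry (version V3), with 1 library for each. The D0 library holds organoids on day 42 of culture, before grafting, and the HIP_2MPT, PFC_2MPT, HIP_4MPT and PFC_4MPT libraries hold grafted organoids taken 2 or 4 months post transplantation (2MPT, 4MPT) from the hippocampus (HIP) or the prefrontal cortex (PFC) of SCID-Beige mice. All 5 come from H9, a human embryonic stem cell line, with the genotype given as WT in the labels, and the study states that this line carries channelrhodopsin-2 (ChR2) and the fluorescent protein EYFP at the AAVS1 locus, so the D0 controls carry them too. D0 organoids were dissociated with TrypLE, whereas EYFP-positive graft tissue was dissected and dissociated with Trypsin-EDTA, and several organoids or hosts were pooled into a library. SCID-Beige hosts lack T and B lymphocytes and have impaired natural killer cells, and they keep microglia and other myeloid cells. D0 is a single library, and D0 differs from every graft library in dissociation, in gene annotation, in depth and in growth in vitro or in a host, so these cannot be told apart from the effect of grafting. A stage after grafting has 2 libraries, 1 from each graft site, so the spread within a stage includes the difference between sites.

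Class I molecules carry short peptides from the cell's own proteins to its surface, where cytotoxic T cells and natural killer cells read them. The proteasome cuts proteins into peptides, the TAP1 and TAP2 transporter moves the peptides into the endoplasmic reticulum, and there they are loaded onto a heavy chain (HLA-B, HLA-C, HLA-E or HLA-F) held by B2M, the light chain. Under interferon, cells replace catalytic proteasome subunits by the immunoproteasome subunits PSMB8, PSMB9 and PSMB10. Neurons are known for low class I levels, whereas glia and endothelial cells carry more, and in the developing brain class I molecules are also studied for roles at synapses.

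Of the 9 genes, 8 lie in the major histocompatibility complex on chromosome 6 and B2M lies on chromosome 15 (GRCh38, GENCODE v44 annotation). HLA-F (chr6:29722775-29738528, plus strand), HLA-E (chr6:30489509-30494194, plus), HLA-C (chr6:31268749-31272130, minus) and HLA-B (chr6:31353872-31367067, minus) are spread over the class I region. TAP2 (chr6:32821833-32838739, minus), PSMB8 (chr6:32840717-32844679, minus), TAP1 (chr6:32845209-32853816, minus) and PSMB9 (chr6:32844136-32859851, plus) lie side by side in the class II region. B2M spans chr15:44711358-44718851 on the plus strand. Heavy chain genes resemble each other and differ between people, so reads of HLA-B, HLA-C, HLA-E and HLA-F can be split or lost in counting, and their levels are uncertain to that extent. TAP2 shares 19.5% of its exon bases with a readthrough gene on the same strand that was listed in D0 only, where it held 1 UMI. PSMB9 shares 5.21% of its exon bases with PSMB8-AS1 on the same strand, which held between 13 and 31 UMIs in a library.

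Class I genes are known for short shared promoter motifs, so the promoters of the light chain, of both classical heavy chains and of a transporter gene are shown. RefSeq promoter windows (GRCh38.p14, the 250 bases before the start) were matched for 8 of the 9 genes, and HLA-E was not matched. Capitals mark the cores of 3 motifs known from class I promoters, searched on both strands: GAAANNGAA, the core of the interferon-stimulated response element, CCAAT, the core of the Y box, and TGACG, the core of the X2 box of the SXY module that the transactivator NLRC5 works through. Each line gives the window in transcript direction, 5' to 3'.
B2M (chr15:44711267-44711516, plus): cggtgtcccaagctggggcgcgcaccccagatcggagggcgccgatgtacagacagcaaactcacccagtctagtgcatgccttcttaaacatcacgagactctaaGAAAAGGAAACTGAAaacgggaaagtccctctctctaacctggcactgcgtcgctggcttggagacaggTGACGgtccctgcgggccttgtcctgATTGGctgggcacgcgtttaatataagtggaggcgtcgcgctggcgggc
HLA-B (chr6:31357180-31357429, minus): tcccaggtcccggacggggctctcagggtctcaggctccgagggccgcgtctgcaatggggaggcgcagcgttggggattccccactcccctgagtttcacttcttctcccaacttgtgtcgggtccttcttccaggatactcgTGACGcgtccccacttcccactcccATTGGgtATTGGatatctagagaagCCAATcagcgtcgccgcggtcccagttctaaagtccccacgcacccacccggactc
HLA-C (chr6:31272093-31272342, minus): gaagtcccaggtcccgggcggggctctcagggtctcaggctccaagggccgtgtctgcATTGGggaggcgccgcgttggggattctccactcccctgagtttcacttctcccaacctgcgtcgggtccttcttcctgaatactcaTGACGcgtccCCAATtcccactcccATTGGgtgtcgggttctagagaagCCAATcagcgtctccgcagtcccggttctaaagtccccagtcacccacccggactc
TAP1 (chr6:32853705-32853954, minus): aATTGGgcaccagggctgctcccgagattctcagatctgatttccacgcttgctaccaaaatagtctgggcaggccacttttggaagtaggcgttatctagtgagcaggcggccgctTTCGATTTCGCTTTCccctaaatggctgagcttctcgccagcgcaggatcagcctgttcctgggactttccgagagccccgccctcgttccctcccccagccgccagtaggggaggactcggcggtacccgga

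The B2M window held 2 overlapping matches to the interferon core, 1 to the Y box core and 1 to the X2 core. TAP1 held 2 overlapping interferon cores and 1 Y box core, and its window overlaps that of PSMB9, which is read in the opposite direction and held 1 Y box core and 1 X2 core. HLA-B held 3 Y box cores and 1 X2 core, and HLA-C held 4 and 1, with no match to GAAANNGAA in either window. HLA-F and TAP2 held 1 interferon core each. TAP1 and PSMB8 have a further listed start, and neither of those windows held a match. Among 35116 promoters of the same table, 6.88% held the interferon core, 32.0% the Y box core and 21.2% the X2 core, so the short cores are common and a match is only a description of the letters.

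Human cells numbered 4885 in D0, 8277 and 6913 in the HIP grafts at 2MPT and 4MPT, and 5952 and 8363 in the PFC grafts. Their summed UMIs (unique molecular identifiers, counted once per captured RNA molecule) ran from 11192237 in HIP_2MPT to 55892222 in D0, with a median per cell of 9847 in D0 and of 1253 to 2759 in the grafts. Pairs of libraries shared 6 to 20 cell barcodes. In PFC_4MPT, 1867 cells had only 80% to 90% of their UMIs from human genes, and its median mitochondrial share of 7.31% was the highest of the 5 libraries. Levels are given as CPM, the UMIs of a gene per 1000000 UMIs of the same cells, with 95% exact Poisson intervals that cover counting error only. Values of a graft site are given at 2MPT and then at 4MPT.

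Over all human cells, the 9 genes fell into 3 patterns across libraries. The classical heavy chains HLA-B and HLA-C and the conserved heavy chain HLA-E were highest before grafting, the immunoproteasome subunits PSMB8 and PSMB9 were lowest before grafting, and B2M was highest at 4MPT. The peptide transporter genes TAP1 and TAP2 ranged from 4.36 to 7.04 CPM and from 3.37 to 5.13 CPM. HLA-F, a non-classical heavy chain, was rare everywhere.

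HLA-B reached 46.1 CPM (44.3 to 47.9) before grafting. In the HIP grafts it stood at 31.6 CPM (28.4 to 35.1) and then 11.0 (9.68 to 12.5), and in the PFC grafts at 10.1 (8.57 to 11.8) and then 16.9 (15.0 to 19.0). HIP_2MPT was thus 3.13 times as high as PFC_2MPT, and only HIP_4MPT and PFC_2MPT could not be separated in the order of the 5 levels. HLA-C followed the same order, with 61.8 CPM in D0, 52.6 and 37.0 in HIP and 32.6 and 41.9 in PFC, where PFC_4MPT overlapped HIP_4MPT and HIP_4MPT overlapped PFC_2MPT. HLA-E, which displays peptides from the other heavy chains to natural killer cells, stood at 18.3 CPM in D0, 8.93 and 7.74 in HIP and 5.95 and 10.7 in PFC. Every graft library lay below D0 for HLA-B, HLA-C and HLA-E, and among the 4 grafts the neighbours in the HLA-E order had overlapping intervals. Beyond neighbours, HLA-E in PFC_4MPT (9.23 to 12.4) lay apart from HIP_4MPT (6.60 to 9.01) and PFC_2MPT (4.78 to 7.31).

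B2M stood at 127 CPM (124 to 130) in D0. The HIP grafts held 135 CPM (129 to 142) and then 198 (192 to 204), and the PFC grafts 113 (108 to 119) and then 219 (212 to 226). The 4MPT libraries lay above all others, and D0 and HIP_2MPT overlapped. The stage means were 124 ± 15.6 CPM at 2MPT and 208 ± 14.7 at 4MPT (SD, n = 2 libraries each). The heavy chains had no such order, as the stage means of HLA-C were 42.6 ± 14.1 and 39.5 ± 3.45 CPM and those of HLA-E 7.44 ± 2.11 and 9.23 ± 2.12 (SD, n = 2 each).

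PSMB8, which replaces the chymotrypsin-like subunit PSMB5, gave 3.15 CPM (2.70 to 3.65) in D0, 16.3 and 13.3 in HIP and 15.5 and 15.2 in PFC. The 4 grafts differed from each other by no more than 1.22 times, and the intervals of neighbours overlapped. PSMB9, which replaces PSMB6, gave 0.644 CPM (0.451 to 0.892) in D0, 12.9 and 8.20 in HIP and 8.32 and 9.25 in PFC. Its 36 UMIs in D0 came from 21 of 4885 cells, with 10 of them in 1 cell, so PSMB9 was close to the detection limit in the organoids. In the grafts it was found in 108 to 158 cells of a library.

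TAP1 stood at 5.76 CPM in D0, 5.90 and 7.04 in HIP and 4.36 and 6.23 in PFC. TAP2 stood at 3.49 CPM in D0, 4.74 and 5.13 in HIP and 3.37 and 4.98 in PFC. For both transporter genes all neighbours in the order of the 5 libraries had overlapping intervals. Libraries further apart in the order could differ. For TAP1, HIP_4MPT (5.96 to 8.25) lay apart from PFC_2MPT (3.37 to 5.55), and for TAP2, HIP_4MPT (4.21 to 6.18) lay apart from D0 (3.02 to 4.01). HLA-F rested on few UMIs, 28 in D0, 38 and 13 in HIP and 26 and 21 in PFC, or 0.501 CPM, 3.40 and 0.606 CPM, and 1.72 and 1.25 CPM.

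**Figure D1:**
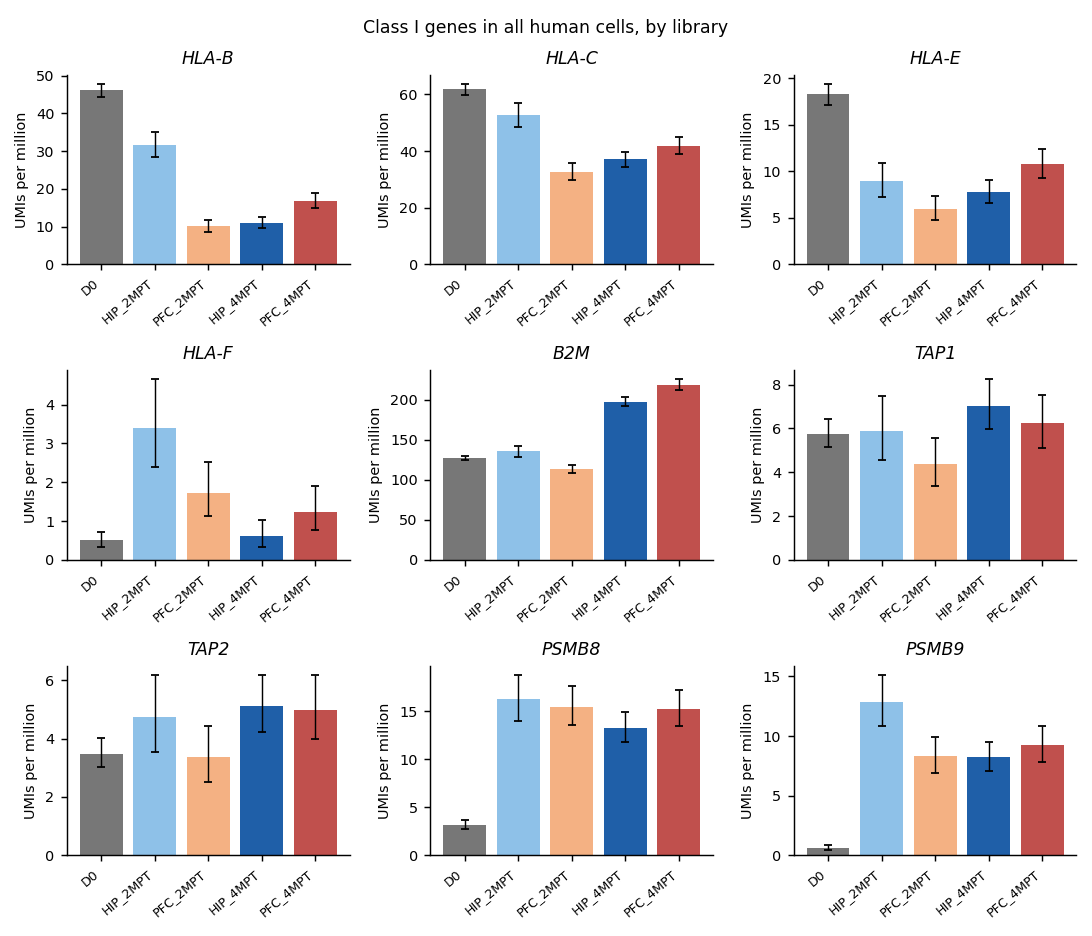
Level of each class I gene in all human cells of the 5 libraries, in UMIs per 1000000 on linear axes that start at 0, with 95% exact Poisson intervals as error bars. HLA-B stands at 46.1 in D0 and between 10.1 and 31.6 in the grafts, PSMB9 at 0.644 and between 8.20 and 12.9, and B2M is highest in the 4MPT libraries (198 and 219).

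To ask which genes changed between stages, UMI sums per library were tested in edgeR (quasi-likelihood, p-values adjusted by Benjamini-Hochberg over all genes), with the HIP and PFC libraries as replicates of a stage. Against D0, the 2MPT grafts had higher levels of PSMB9 (log2 fold change 3.67, SE 0.50, adjusted p = 0.000221), PSMB8 (1.97, SE 0.37, adjusted p = 0.00147) and HLA-F (1.96, SE 0.72, adjusted p = 0.0437). Lower in the 2MPT grafts were HLA-E (-1.66, SE 0.37, adjusted p = 0.00444), HLA-B (-1.52, SE 0.50, adjusted p = 0.0281) and HLA-C (-0.90, SE 0.31, adjusted p = 0.0341). B2M (-0.39, SE 0.27), TAP1 (-0.53, SE 0.39) and TAP2 (-0.15, SE 0.43) did not pass, with adjusted p values of 0.258, 0.286 and 0.795. So 3 of 9 genes were higher and 3 lower, where 27.2% of all 19074 genes tested were called higher and 21.1% lower, and D0 was assumed to vary like the other libraries. With that much of the genome called, the count over the 9 genes is close to the background, and the 9 genes are described by their individual values.

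Against D0, the 4MPT grafts were again higher in PSMB9 (log2 fold change 3.45, SE 0.49, adjusted p = 0.000287) and PSMB8 (1.88, SE 0.36, adjusted p = 0.00177) and lower in HLA-B (-2.01, SE 0.50, adjusted p = 0.0070), HLA-E (-1.28, SE 0.37, adjusted p = 0.0151) and HLA-C (-0.94, SE 0.31, adjusted p = 0.0268). HLA-F (0.57, SE 0.71), B2M (0.41, SE 0.28), TAP2 (0.23, SE 0.43) and TAP1 (-0.10, SE 0.39) did not pass (adjusted p = 0.53, 0.241, 0.674 and 0.853 by the same edgeR test). Over all genes 28.7% were called higher and 21.4% lower. This comparison shares the D0 library with the former, so the D0 values enter both.

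Some of the calls against D0 depended on the method or on 1 library. HLA-F at 2MPT was not called by DESeq2 (adjusted p = 0.0825), and without PFC_4MPT only 3 of 9 genes were called in each comparison with D0, HLA-B among those lost (adjusted p = 0.0943 at 2MPT and 0.0520 at 4MPT). The same number, 3, was called at 2MPT after each cell was thinned to 1000 UMIs and at 4MPT without HIP_4MPT. The edgeR scaling lies below plain CPM ratios, since the median log2 ratio over all genes was 0.34 in CPM and 0.07 in the fit at 2MPT, and 0.28 and 0.08 at 4MPT. The genes called kept their direction in CPM, whereas TAP2 at 2MPT (0.23 in CPM) and TAP1 at 4MPT (0.22 in CPM) took the other sign.

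Between 2MPT and 4MPT, none of the 9 genes was called, where 2.4% of 19074 genes were. B2M came nearest, with a log2 fold change of 0.81 (SE 0.23, unadjusted p = 0.00478, adjusted p = 0.113 by edgeR), and its level was higher at 4MPT at both sites. In HIP this did not hold within every cell class, as given below. DESeq2 called B2M (0.81, adjusted p = 0.0377), and edgeR called it when no filter on low counts was used (0.83, adjusted p = 0.0335). HLA-F had a log2 fold change of -1.39 (SE 0.58, adjusted p = 0.317) and HLA-B of -0.50 (SE 0.44, adjusted p = 0.701). The other 6 genes lay between -0.21 for PSMB9 and 0.43 for TAP1. At an unadjusted p under 0.05 there were 2 of the 9 genes and 2614 of all genes.

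**Figure D2:**
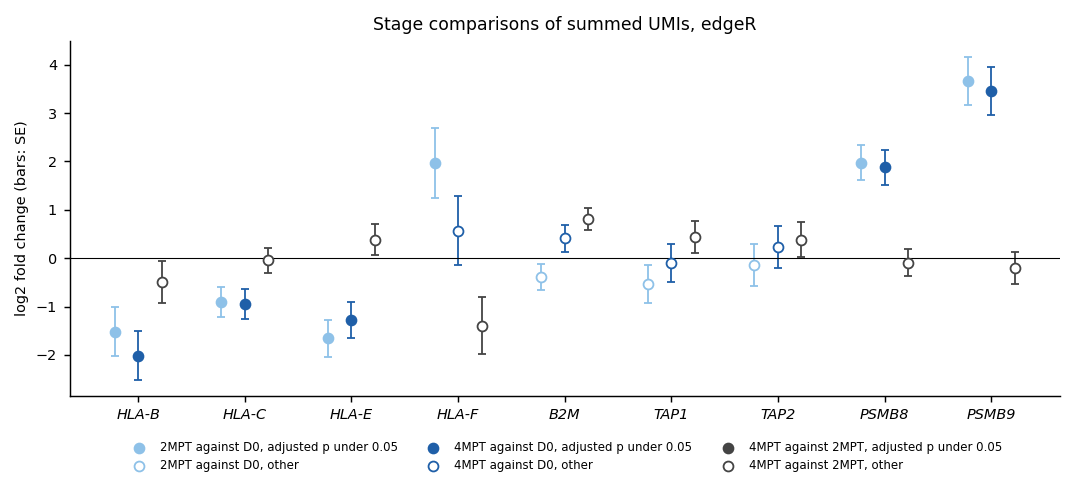
Log2 fold change of each class I gene in 3 stage comparisons over all human cells, filled where the edgeR adjusted p is under 0.05. Bars give the standard error derived from the F statistic of the test. PSMB8 and PSMB9 sit between 1.88 and 3.67 above D0 at both stages, HLA-B, HLA-C and HLA-E sit between -0.90 and -2.01, and no filled point appears for 4MPT against 2MPT.

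Cell classes were compared next, since stage sums mix cell types whose shares differ. The tests against D0 were run over all cells only, not within classes. Human cells were clustered without the class I genes and their pathway lists, and 20 of 22 clusters could be named from marker genes. Neuron-like cells (STMN2, NEUROD6 and others, or GAD1 and DLX genes) made up 35.1% of D0 and 50.8% to 63.6% of the grafts. Progenitor-like cells (cycling or radial glia markers such as MKI67, SOX2 and VIM) made up 31.7% of D0 and 2.98% to 6.54% of the grafts, and astrocyte-like cells (GFAP, AQP4, HOPX and others) made up 1.88% of D0 and 4.37% to 10.3% of the grafts. Choroid-plexus-like cells numbered 978 in D0 and at most 40 in a graft library, and oligodendrocyte-lineage-like cells numbered 64 in HIP_4MPT and 104 in PFC_4MPT. With finer clusters (resolution 1.6), 393 D0 cells were choroid-plexus-like, in a cluster with a median of 14298.5 UMIs per cell. At that resolution 2 shallow clusters left unnamed held 352 and 214 D0 cells, with medians of 1350.5 and 1874 UMIs. CDKN1A was among the leading genes of the former, HSPA6 and DDIT4 of the latter. Among 1715 neuron-like cells before grafting, 1134 fell in 1 cluster that held 2 graft cells, so most D0 neuron-like cells belong to a cluster almost absent from the grafts. The unnamed clusters held 2.55% to 15.4% of a library, and 1 of them, led by histone genes and RRM2, had cycling progenitor markers as its best list.

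Within each graft library, astrocyte-like cells held a higher level of most of these genes than neuron-like cells did. This is a description over 4 libraries, as cells of a library are not replicates and the classes come from the same cells. HLA-B in astrocyte-like cells was 126 and 43.3 CPM in HIP and 41.0 and 65.6 in PFC, against 16.2 and 4.13 in HIP and 3.98 and 8.68 in PFC in neuron-like cells. The ratio stayed between 7.55 and 10.5 in the 4 grafts. In D0 the classes were not ordered this way, with 40.1 CPM in astrocyte-like and 49.6 in neuron-like cells, a ratio of 0.807.

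B2M in astrocyte-like cells was 572 CPM (507 to 643) and 726 (695 to 757) in HIP and 465 (427 to 506) and 905 (859 to 953) in PFC, against 197 (171 to 225) in D0. In neuron-like cells it was 71.4 and 41.0 CPM in HIP, 30.5 and 77.0 in PFC and 86.5 in D0. The astrocyte-like level was 8.01 to 17.7 times the neuron-like level in the grafts and 2.27 times in D0. All 4 graft values of astrocyte-like cells lay above D0, while all 4 of neuron-like cells lay below it.

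HLA-E in the grafts was higher in astrocyte-like and progenitor-like cells than in neuron-like cells. It gave 77.4 and 37.9 CPM in astrocyte-like cells of HIP, 41.9 and 63.1 in those of PFC and 63.9 in D0, while neuron-like cells held 3 to 15 UMIs in a graft library, or 0.362 to 1.98 CPM. The graft ratio of 37.3 to 116 rests on these few neuronal UMIs. In HIP_2MPT the neuron-like level of 1.98 CPM was below the 2.78 CPM of human HLA-E in host mouse cells of that library (4 UMIs). It thus cannot be told from the background of human UMIs in mouse cells, and host cells of the other 3 grafts held no HLA-E UMI. HLA-C was less divided, with 84.7 to 159 CPM in astrocyte-like and 17.2 to 34.7 in neuron-like cells of the grafts, a ratio of 4.13 to 6.69. In D0 it was 77.3 CPM in astrocyte-like and 49.5 in neuron-like cells, a ratio of 1.56. The higher D0 levels of HLA-B and HLA-C over all cells were thus not seen in astrocyte-like cells.

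Progenitor-like cells took a middle place. Their B2M level was 417 and 317 CPM in HIP, 308 and 466 in PFC and 138 in D0, which is 5.84 to 10.1 times the neuron-like level in the grafts. Their PSMB9 level was 60.7 and 11.98 CPM in HIP and 15.9 and 25.4 in PFC, above that of astrocyte-like cells (46.8 and 19.3 in HIP, 27.4 and 22.5 in PFC) in 2 of 4 grafts. The unnamed cluster with cycling markers held 88.9 and 30.04 CPM of PSMB9 in HIP and 51.2 and 16.8 in PFC, so the progenitor level of PSMB9 depends on whether such cells are counted. In D0 PSMB9 was at 0.889 CPM in progenitor-like cells, on 20 UMIs, and 9.54 CPM in astrocyte-like cells, on 10 UMIs. Intermediate-progenitor-like cells, named for the step between progenitor and neuron, held 7.63 to 38.4 CPM of HLA-B and 68.6 to 138 CPM of B2M in the grafts. The class is mixed, since EOMES was among the leading genes of 3 of its 4 clusters, while the other (2062 graft cells) was named on 3 raised markers and led by genes such as TUBB3 and SLC12A5, which neurons express. Summed over the grafts, that cluster held 16.3 CPM of HLA-B and 87.5 of B2M, and the other 3 held 16.5 to 21.1 and 94.2 to 175.

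PSMB8 divided the classes in the same direction, with 35.2 to 54.7 CPM in astrocyte-like, 23.2 to 51.2 in progenitor-like and 3.69 to 9.46 in neuron-like cells of the grafts, against 7.64, 3.33 and 0.998 in D0. TAP1 was 17.1 to 22.4 CPM in astrocyte-like cells of the grafts and 19.1 in D0, and 1.93 to 4.58 in neuron-like cells of the grafts. TAP2 showed no such division, being higher in astrocyte-like than in neuron-like cells in 3 of 4 grafts with ratios of 0.848 to 3.28. HLA-F, at 0.782 to 3.81 CPM in neuron-like cells of the grafts and at 0 to 2 UMIs in astrocyte-like cells of a graft, could not be ordered, because the intervals of both classes overlapped in each of the 4 grafts.

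Clusters within a class also varied, when the 4 grafts were summed, although these sums weight the libraries differently. Neuron-like clusters ran from 5.34 to 12.2 CPM of HLA-B and from 29.2 to 92.9 of B2M, with inhibitory neuron-like cells (GAD1, DLX genes) at 5.95 and 85.1 CPM. Of 3 astrocyte-like clusters, the largest (1417 graft cells) held 62.8 CPM of HLA-B and 781 of B2M, the next (324 cells) 39.6 and 735, and the smallest (300 cells) 30.4 and 219. The next largest had 9 cells from HIP_2MPT and 2 from PFC_2MPT, beside 177 and 136 from the 4MPT libraries, whereas the largest had 307 and 361 beside 417 and 332, so their order was not read within a library. Among progenitor-like clusters, a radial glia-like cluster of 488 graft cells had the highest HLA-E level (45.2 CPM) and HLA-B level (36.2 CPM). B2M over these 3 progenitor-like clusters was 164 to 420 CPM, a range that includes the smallest astrocyte-like cluster.

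The classes confined to few libraries had levels of their own. Oligodendrocyte-lineage-like cells gave 419 CPM of B2M in HIP_4MPT and 393 in PFC_4MPT, with 18.4 and 15.0 CPM of HLA-B and no HLA-E UMI, which allows up to 13.8 and 11.2 CPM (3 counts). Choroid-plexus-like cells of D0 gave 77.3 CPM of HLA-B, 105 of HLA-C and 45.4 of HLA-E, with 177 of B2M, 7.17 of PSMB8 and 0.456 of PSMB9. For HLA-B and HLA-C these exceeded the D0 levels of neuron-like cells (49.6 and 49.5 CPM) and progenitor-like cells (34.4 and 57.1). The choroid-plexus-like class of D0 depended on the clustering, with 978 cells here and 393 at resolution 1.6.

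**Figure D3:**
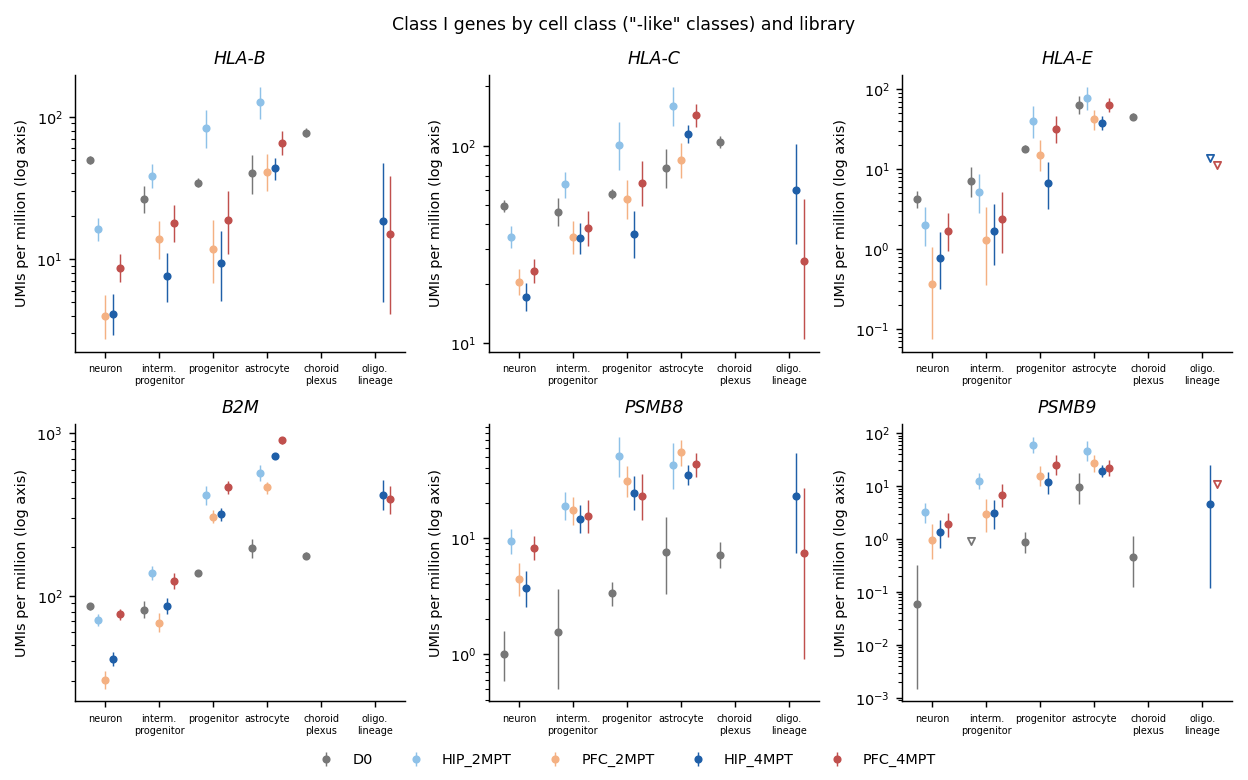
Levels of 6 class I genes by cell class and library, in UMIs per 1000000 on log axes, with 95% exact Poisson intervals and open triangles at the 3-count limit where no UMI was found. In the grafts the astrocyte-like points lie above the neuron-like points of the same library in each panel, for B2M between 465 and 905 against 30.5 and 77.0.

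Whether a class changed between 2MPT and 4MPT was tested on the class sums. None of the 9 genes was called in neuron-like cells, where 1.2% of 15968 genes were, none of the 8 tested in astrocyte-like cells (2.78% of 11929 genes) and none of the 6 tested in progenitor-like cells (0.535% of 10469). HLA-F had too few UMIs to be tested in the last 2 classes, and TAP1 and TAP2 in progenitor-like cells. B2M in astrocyte-like cells had a log2 fold change of 0.71 (SE 0.24, adjusted p = 0.188 by edgeR) and was higher at 4MPT at both sites, against 0.27 (SE 0.40, adjusted p = 0.850) in neuron-like and 0.27 (SE 0.29, adjusted p = 0.979) in progenitor-like cells. HLA-B in progenitor-like cells had -1.46 (SE 0.67, unadjusted p = 0.0450, adjusted p = 0.674 by edgeR). At an unadjusted p under 0.05 there were 0 genes in neuron-like, 1 in astrocyte-like and 1 in progenitor-like cells, and DESeq2 called 0 in each class.

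The HLA-B results depended on single 2MPT libraries. Leaving out either of them sets 1 library at 2MPT against 2 at 4MPT, so the lone library is assumed to vary like the others and the spread comes from the 4MPT pair and from the trend over all genes. Without PFC_2MPT, edgeR called HLA-B in all cells (log2 fold change -1.09, adjusted p = 0.0115), in astrocyte-like cells (-1.15, adjusted p = 0.0185) and in progenitor-like cells (-2.46, adjusted p = 4.25e-05), and PSMB9 in progenitor-like cells (-1.59, adjusted p = 0.0385). Without HIP_2MPT the HLA-B change had the opposite sign in all cells (0.51), in neuron-like (0.72), astrocyte-like (0.42) and progenitor-like cells (0.32).

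The stage change was also set against the class in a single fit, as the difference of the change in astrocyte-like and neuron-like cells. None of the 9 genes was called, where 3.05% of 16476 genes were, 1 had an unadjusted p under 0.05 and DESeq2 called 0. The differences were 0.05 (SE 0.33) for HLA-B, 0.60 (SE 0.27, unadjusted p = 0.0343, adjusted p = 0.301 by edgeR) for HLA-C and 0.42 (SE 0.29, adjusted p = 0.577) for B2M.

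Graft sites were compared with stage in the fit, with 1 residual degree of freedom. No class I gene was called between PFC and HIP in all cells (0.0827% of 18127 genes called), in neuron-like cells (0.175% of 15968) or in astrocyte-like cells (0.168% of 11929), no class I gene had an unadjusted p under 0.05 in any of the 3, and DESeq2 called 0. HLA-B had log2 fold changes of -0.46 (SE 0.42), -0.45 (SE 0.48) and -0.40 (SE 0.33), with an edgeR adjusted p of 1.00 in each. At 1 residual degree of freedom this does not show that the sites are alike.

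Within a site, the 4MPT level lay on opposite sides of the 2MPT level in HIP and PFC for HLA-B and HLA-C. HLA-B in all cells was at 31.6 CPM at 2MPT and 11.0 at 4MPT in HIP, a ratio of 0.349, and at 10.1 and 16.9 in PFC, a ratio of 1.67, with intervals apart at each site. HLA-C was at 52.6 and 37.0 CPM in HIP, a ratio of 0.704, and at 32.6 and 41.9 in PFC, a ratio of 1.28, again with intervals apart. Each site holds 1 library at a stage, so the difference between sites was not tested. HIP_2MPT and PFC_4MPT, the higher library at each site, were also the grafts with the lowest median UMIs per cell (1253 and 1840).

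The classes were set side by side in the same way. In neuron-like cells the 4MPT level over the 2MPT level was 0.255 in HIP and 2.18 in PFC for HLA-B, 0.574 and 2.52 for B2M, and 0.390 and 1.84 for PSMB8, with intervals apart in all 6 cases. The PFC sets differed in make-up, since the inhibitory neuron-like cluster held 18 cells of PFC_2MPT and 1077 of PFC_4MPT. Another neuron-like cluster, with a median of 949 UMIs per cell, held 60 and 923. Summed over the grafts, these clusters held 85.1 and 92.9 CPM of B2M and 5.95 and 12.2 of HLA-B. The part of this make-up in the PFC ratios was not tested. In progenitor-like cells the ratios were 0.112 and 1.6 for HLA-B and 0.761 and 1.51 for B2M, and the intervals of HLA-B in PFC overlapped. In astrocyte-like cells HLA-B gave 0.343 in HIP, with intervals apart, and a ratio with overlapping intervals in PFC, while B2M was higher at 4MPT at both sites, 1.27 times in HIP and 1.95 times in PFC. At 2MPT the HIP level of HLA-B was 4.08 times the PFC level in neuron-like, 3.07 times in astrocyte-like and 7.11 times in progenitor-like cells, and at 4MPT 0.476, 0.661 and 0.496 times, the last with overlapping intervals. Intermediate-progenitor-like cells gave ratios of 0.198 and 1.31 for HLA-B and 0.628 and 1.80 for B2M. In HIP, B2M was thus lower at 4MPT in neuron-like, progenitor-like and intermediate-progenitor-like cells, each with intervals apart, whereas all cells gave a ratio of 1.46. Astrocyte-like cells made up 4.37% of HIP_2MPT and 10.3% of HIP_4MPT, and unnamed cells 2.55% and 15.4%. The part of this mix in the HIP level over all cells was not tested. HLA-C gave 0.495 in HIP and 1.13 in PFC in neuron-like cells and 0.725 and 1.69 in astrocyte-like cells. In progenitor-like cells it gave 0.357 and 1.21, and in intermediate-progenitor-like cells 0.536 and 1.12. The HLA-C intervals overlapped in HIP in astrocyte-like cells and in PFC in the other classes, so none had them apart at both sites.

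HIP_2MPT was the shallowest library, with a median of 1253 UMIs per cell, and it held the most mouse RNA of class I genes in its human cells. Mouse H2-D1, a host class I heavy chain, stood at 171 CPM in human cells of HIP_2MPT and at 7.34 to 21.2 in the other grafts, and at 4368 CPM in its host cells against 908 to 1990. Mapping to a human and mouse genome together gave 353 HLA-B UMIs in the same HIP_2MPT cells where the human genome alone gave 354, so nearly all were kept when mouse genes were offered. In HIP_2MPT cells with over 95%, 90% to 95% and 80% to 90% human UMIs, HLA-B was 31.0, 35.2 and 24.4 CPM. The part of host RNA and depth in the HIP_2MPT level beyond these values was not tested. In PFC_4MPT the same bins, of 2278, 4218 and 1867 cells, gave 326, 154 and 121 CPM of B2M, with intervals apart. HLA-B was there at 21.5, 14.7 and 10.9 CPM and HLA-E at 18.2, 4.86 and 8.72. B2M in the HIP_4MPT bins was at 204, 135 and 113 CPM. So these 4MPT levels differed by human share. Cell classes were not separated in the bins, and the cause was not tested.

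**Figure D4:**
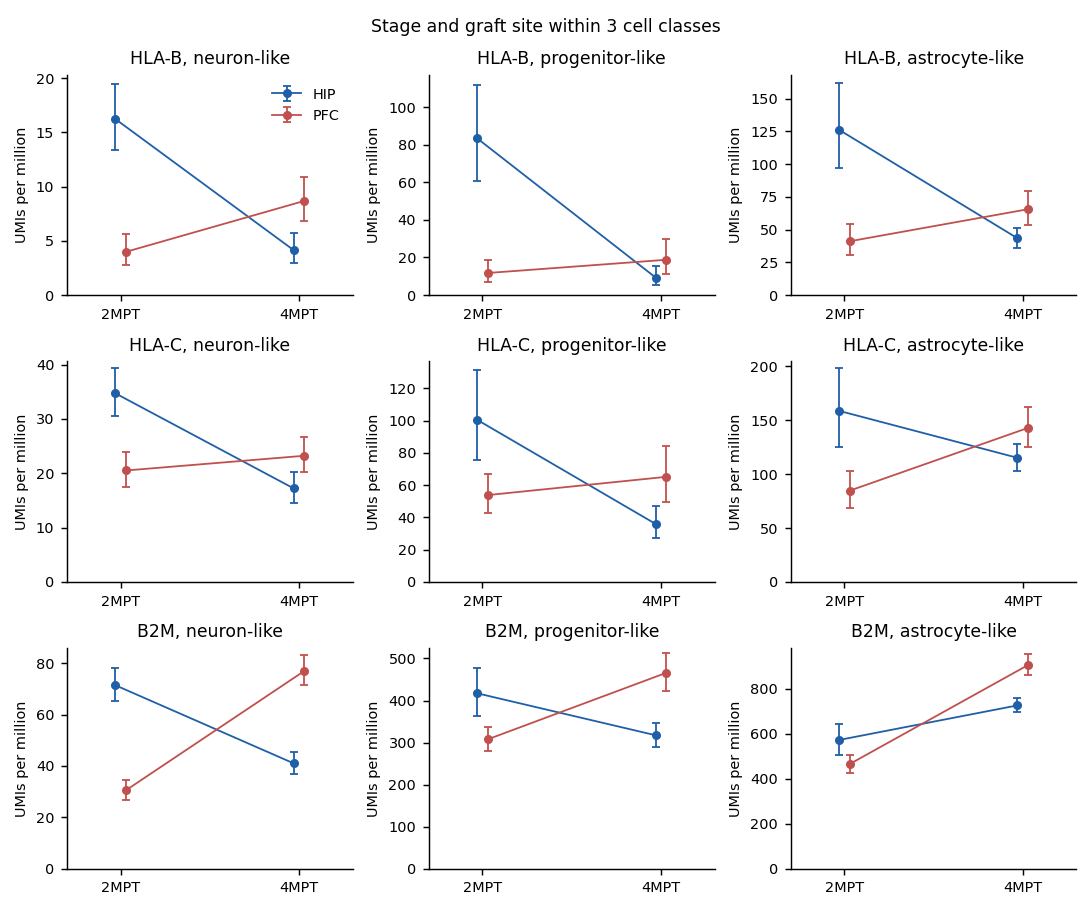
HLA-B, HLA-C and B2M in 3 cell classes at 2MPT and 4MPT, in UMIs per 1000000 with 95% exact Poisson intervals, with HIP in blue and PFC in red and 1 library per point. HLA-B in HIP is lower at 4MPT in each class (0.112 to 0.343 of its 2MPT level), and B2M in astrocyte-like cells is higher at 4MPT at both sites (1.27 and 1.95 times).

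Human UMIs in mouse cells gave a background level, in which free RNA and barcodes of mixed cells were not told apart. Barcodes with under 20% human UMIs numbered 916 and 2071 in HIP and 772 and 1202 in PFC. Human B2M in them was at 19.5 and 8.07 CPM in HIP and 2.66 and 11.1 in PFC, which is 14.4%, 4.08%, 2.35% and 5.06% of the level in human cells of the same library. Human HLA-B was at 5.57 CPM in HIP_2MPT and 0.303 in HIP_4MPT, with no UMI in the host cells of either PFC library. In HIP_2MPT the host level was 17.6% of the human level for HLA-B, 19.8% for HLA-C and 31.2% for HLA-E, the last on 4 UMIs, and PSMB9 at 2.09 CPM (0.431 to 6.10, 3 UMIs) overlapped the 3.25 CPM of neuron-like cells there.

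Shares of cells with a UMI were compared after each cell was thinned to 1000 UMIs, which left out 282 cells in D0, 1635 and 171 in HIP and 233 and 982 in PFC. B2M was then found in 12.1% of D0 cells, 10.3% and 11.9% of HIP cells and 8.41% and 14.7% of PFC cells. Without thinning the shares were 52.9% in D0, 13.5% and 26.8% in HIP and 16.5% and 22.7% in PFC, so the high D0 share was seen only at full depth. Mouse host cells thinned alike gave 1.77% and 1.08% in HIP and 0.316% and 1.19% in PFC, at median depths of 1418.5 to 3035 UMIs. HLA-B was found in 4.28% of D0 cells, 2.80% and 0.949% of HIP cells and 0.839% and 1.49% of PFC cells after thinning, with at most 0.408% of host cells in a graft library. HLA-C was found in 5.74% of D0 cells, 4.89% and 3.03% of HIP cells and 2.90% and 3.58% of PFC cells, beside 0.171% to 1.09% of host cells. PSMB8 was found in 0.261% of D0 cells, 1.55% and 0.920% of HIP cells and 1.31% and 1.26% of PFC cells, beside at most 0.272% of host cells.

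By class, B2M was found in 14.5% of thinned astrocyte-like cells in D0, in 35.4% and 43.98% of those in HIP and in 33.9% and 52.0% of those in PFC. Neuron-like cells gave 8.32% in D0, 6.28% and 3.52% in HIP and 2.94% and 7.42% in PFC. Progenitor-like cells gave 13.5% in D0, 31.7% and 25.1% in HIP and 27.8% and 37.7% in PFC. At least 1 of the 9 genes was seen in 43.5% to 62.8% of astrocyte-like, 30.4% to 46.3% of progenitor-like and 6.47% to 12.9% of neuron-like graft cells, against 26.5%, 22.9% and 17.5% in D0.

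The immunoproteasome was set beside the constitutive subunits it replaces, as the share of the pair's UMIs (3' counts, 1 tag per molecule whatever its length). PSMB8 took 1.25% of the PSMB8 and PSMB5 pair in D0, 6.90% and 6.44% in HIP and 7.65% and 6.93% in PFC. PSMB9 took 0.337% of its pair with PSMB6 in D0, 4.68% and 3.86% in HIP and 3.77% and 4.12% in PFC. PSMB10 took 2.96% of its pair with PSMB7 in D0, 14.9% and 15.8% in HIP and 14.5% and 19.3% in PFC. PSMB10 shares 39.4% of its exon bases with a gene on the same strand listed in D0 only, which held 38 UMIs there beside 262 of PSMB10. Reads of the shared bases may have been lost from the D0 count of PSMB10, and their number was not measured. None of the 3 constitutive subunits passed the edgeR test against D0 at either stage, with 1 of 3 at an unadjusted p under 0.05 in each and median log2 fold changes of -0.04 and -0.18.

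By class, the PSMB8 share in the grafts was 13.2% to 20.3% in astrocyte-like, 9.01% to 18.1% in progenitor-like and 2.15% to 4.21% in neuron-like cells. In D0 it was 3.29%, 1.38% and 0.381%. The PSMB9 share of progenitor-like cells was 17.3% and 4.31% in HIP and 5.41% and 8.13% in PFC, and that of astrocyte-like cells 19.3% and 7.58% in HIP and 10.6% and 8% in PFC. Each graft share of these 3 classes lay above the D0 share of the same class, and HIP_2MPT gave the highest PSMB9 share in both astrocyte-like and progenitor-like cells. The D0 share of PSMB9 in astrocyte-like cells was 4.50% (2.18% to 8.13%) on 10 UMIs. Its interval overlapped those of PFC_2MPT, HIP_4MPT and PFC_4MPT.

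**Figure D5:**
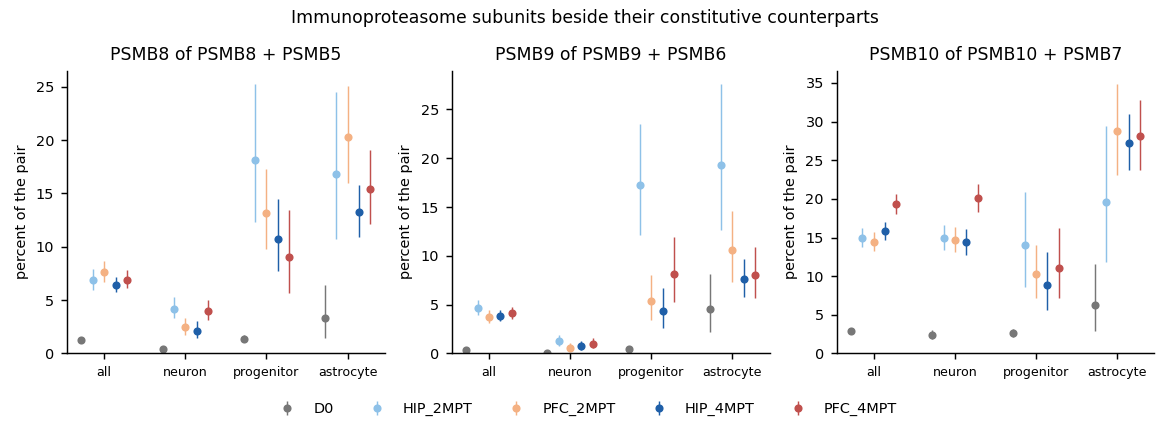
Share of PSMB8, PSMB9 and PSMB10 in the UMIs of each subunit and its constitutive counterpart, in percent, for all human cells and 3 classes, with 95% exact binomial intervals. In all human cells PSMB8 takes 1.25% in D0 and between 6.44% and 7.65% in the grafts.

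Other genes of the pathway were described as lists, by how many were called and by their median log2 fold change beside that of all genes (0.07 at 2MPT and 0.08 at 4MPT against D0). Every count against D0 stands beside 27.2% of all genes called higher and 21.1% lower at 2MPT, and 28.7% and 21.4% at 4MPT, so counts near these shares are not read as a result about a list. Of 5 tested genes of the peptide loading complex, 4 were lower than in D0 at each stage, with medians of -1.34 and -1.25. These were CANX (-2.09 and -1.79), TAPBP, the tapasin that bridges class I and the transporter (-1.53 and -1.25), HSPA5 (-1.34 and -1.29) and CALR (-1.21 and -0.83). CANX, CALR and HSPA5 are general chaperones of the endoplasmic reticulum that serve many proteins. Among 8 genes of peptide trimming and supply, PSMB10 was higher at both stages (2.63 and 2.64) and ERAP2, an aminopeptidase that trims peptides, at 4MPT (2.52), with medians of 0.05 and 0.12. The PSMB10 values are uncertain, since 39.4% of its exon bases are shared with a gene listed in D0 only. The part of this overlap in the PSMB10 change was not tested.

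Regulators of class I were called in both directions, with counts near those shares. Of 12 tested, 2 were higher and 2 lower at 2MPT and 5 higher and 2 lower at 4MPT, with medians of 0.11 and 0.06. NLRC5, the transactivator of class I genes, was higher at both stages (4.51, SE 0.72, adjusted p = 0.000608, and 3.16, SE 0.70, adjusted p = 0.00393 by edgeR). Its level was 0.161 CPM on 9 UMIs in D0, 6.08 and 1.44 in HIP and 3.63 and 2.19 in PFC, so both 2MPT values lay above both 4MPT values, a change that did not pass between stages (-1.35, adjusted p = 0.202). STAT2 (1.43) and IRF9 (1.42), which carry the interferon signal to the nucleus, were higher at 4MPT, and NFKB1 was higher at both stages (1.20 and 1.28). At 4MPT the call of IRF9 was lost without PFC_4MPT (adjusted p = 0.0720) and that of NFKB1 without HIP_4MPT (adjusted p = 0.0692).

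NLRC5 had a higher level in astrocyte-like than in neuron-like cells of each graft, with intervals apart. In astrocyte-like cells it was 22.4 and 3.05 CPM in HIP and 12.8 and 8.12 in PFC, and in progenitor-like cells 28.5 and 2.00 in HIP and 3.45 and 3.31 in PFC, against 0.335 to 2.54 in neuron-like cells. The progenitor-like values rest on 15 UMIs in HIP_2MPT and on 3 to 5 in the other grafts, where their intervals overlapped those of neuron-like cells. IRF1, an interferon-induced activator of class I genes, was lower at 4MPT than at 2MPT in astrocyte-like cells (log2 fold change -3.08, SE 0.52, adjusted p = 0.00971 by edgeR), at 83.5 and 5.42 CPM in HIP and 27.4 and 6.24 in PFC. Its change in astrocyte-like cells differed from that in neuron-like cells by -2.61 (SE 0.56, adjusted p = 0.00634 by edgeR in the fit of both classes), where neuron-like cells gave 5.08 and 1.79 CPM in HIP and 2.90 and 4.51 in PFC. In progenitor-like cells IRF1 was at 41.7 and 2.66 CPM in HIP and 28.99 and 19.9 in PFC, the latter with overlapping intervals, and in the unnamed cells at 41.1 and 6.40 in HIP and 37.4 and 17.8 in PFC, so lower values at 4MPT were not limited to astrocyte-like cells. With classes set from marker UMIs neither IRF1 call was kept (-2.16, adjusted p = 0.244 in astrocyte-like cells, and a difference of -1.47, adjusted p = 0.90).

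Interferon-induced genes gave a mixed picture. Of 17 tested, 2 were higher and 9 lower than D0 at 2MPT, and 3 higher and 9 lower at 4MPT, with medians of -1.52 and -1.29. Lower genes included IFI44L (-3.85 and -3.02) and IFITM1, which held 178 UMIs in D0 and 0 to 2 in a graft, whereas RSAD2 was higher (3.95 and 3.89). OAS1 held 44 UMIs in D0 and 0 in the grafts. As a sum over the list, neuron-like cells held 168 CPM in D0, 229 and 210 in HIP and 174 and 208 in PFC. The intervals of D0 and PFC_2MPT overlapped. Progenitor-like cells held 353 in D0, 239 and 190 in HIP and 233 and 280 in PFC. Intermediate-progenitor-like cells held 190 in D0, 192 and 157 in HIP and 140 and 167 in PFC. Astrocyte-like cells held 512 in D0, 383 and 395 in HIP and 449 and 514 in PFC. So a sum below D0 was not shared by every class. Between 2MPT and 4MPT, IFIT1 (2.23, SE 0.44, adjusted p = 0.0264) and BST2 (1.72, SE 0.37, adjusted p = 0.0388 by edgeR) were higher at 4MPT, the 2 called of 17, with a list median of 0.39 beside -0.01 for all genes. IFIT1 was also called in astrocyte-like cells (2.39, adjusted p = 0.0325 by edgeR). Both calls in all cells were lost without PFC_4MPT (adjusted p = 0.260 for IFIT1 and 0.263 for BST2), without HIP_4MPT (0.0589 and 0.146) and after thinning (0.0822 and 0.303). Among 7 interferon receptor and kinase genes, JAK1 was higher at both stages against D0 (1.97 at 4MPT) and JAK2 at 4MPT (1.41).

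Class II genes, which present peptides to helper T cells, were low, with a summed level of 19.0 CPM over 11 genes in D0 and 3.90 to 9.65 in the grafts. Of 7 tested, 1 was higher and 2 lower at 2MPT and 2 lower at 4MPT. HLA-DPB1, lower at 2MPT (log2 fold change -2.21), was the highest class II gene in D0 at 7.12 CPM and stood at 2.44 in PFC_2MPT. Counts of other class II genes were uneven between libraries. HLA-DRB1 held 240 UMIs in D0, 36 and 3 in HIP and 0 and 1 in PFC, HLA-DQB1 held 188 in D0 and at most 1 in a graft, and HLA-DQA1 held 0 in D0, 19 and 1 in HIP and 0 and 2 in PFC. Other class I genes (HLA-G, MR1 and CD1D) summed to at most 0.593 CPM. Of 4 genes listed as receptors for class I on neurons and their partners, only CD247 was tested, a partner and not itself a receptor for class I. CD247 was higher at 4MPT than in D0 (2.39, SE 0.49, adjusted p = 0.0025 by edgeR).

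Markers of other class I rich cells were low. Human leukocyte markers (9 genes) summed to 16.5 CPM in D0, 13.1 and 5.31 in HIP and 5.02 and 5.93 in PFC, with 2 to 4 of the 9 at 0 and C1QA at 0 in every library. The sums were highest in D0 and HIP_2MPT, the libraries with the most HLA-B, but AIF1 alone gave 13.4 and 6.61 CPM of these. Endothelial markers (7 genes) summed to 35.6 CPM in D0 and 9.41 to 21.1 in the grafts, and pericyte and mesenchyme markers (8 genes) to 38.1 and 17.2 to 33.7. Their part in the class I levels was not tested.

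Genes with the most similar pattern were sought over 23 library by class sums, by Pearson's r with the mean standardized level of the 6 class I genes that averaged at least 10 CPM. Of 10175 genes compared, the closest were NBPF26 (r = 0.89), SLC9A3R1, CSTB and ANOS1 (0.87 each), AL590617.2 and YAP1 (0.86 each), LITAF, LRIG1 and ITGA2 (0.85 each) and TNC (0.84). The sums share libraries and classes, so r is a description of these 23 points. Among the class I genes themselves HLA-B and HLA-C gave r = 0.91 and PSMB8 and PSMB9 r = 0.90.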

How the data were processed

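Droplet libraries (10x Genomics 3' V3) of H9 brain organoids were analysed, 1 for each of 5 conditions. The authors deposited filtered matrices of UMI counts per gene and cell, not normalized, aligned to the human genome (GRCh38), and for grafts also to a joint human and mouse genome. The labels name Cell Ranger 3.1, while the file headers give 3.1.0 for D0 (33538 genes) and 5.0.0 for grafts (36601 genes); whether introns were counted is not given in the sources used here. Only the 32732 genes listed in both were used, so a gene absent from 1 annotation could shift the reads of an overlapping gene in D0 against the grafts.

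Cells were kept with over 500 UMIs, over 500 genes, a log10 genes to log10 UMIs ratio over 0.80, under 15% mitochondrial UMIs and, in grafts, over 80% human UMIs, which left 34390 cells. Barcodes with under 20% human UMIs and over 500 mouse UMIs were taken as host cells. No doublet caller was run. Cells were clustered with Seurat 5.3.0 and sctransform 0.4.2 (2500 variable genes without the class I and list genes, 40 components, resolution 0.8), and classes with at least 50 cells in a library were used.

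UMI counts were summed per library, or per library and class, and tested with edgeR 4.0.16 (quasi-likelihood, filterByExpr, TMM, Benjamini-Hochberg at 0.05, R 4.3.3); DESeq2 1.42.0 was the alternative. The SE given with an edgeR value was derived as the absolute log2 fold change divided by the square root of the F statistic. Labels do not give separate cultures or hosts beyond the library, so p-values measure the spread between libraries only, and the spread within a stage includes the site. The same site at 2 stages pairs no animals: HIP minus PFC differences at 2MPT and 4MPT correlated with r = -0.24 over 17201 genes. Levels have 95% exact Poisson intervals, shares 95% Clopper-Pearson intervals, and a count of 0 a limit of 3 counts; all cover counting error only. The scripts were tested on simulated data. The 9 genes were fixed by role, and the genes named from lists were those called with the largest changes (up to 4 per list and comparison), beside genes followed in every comparison (TAPBP, PSMB10, NLRC5 and IRF1). The 9 genes and all lists were chosen with earlier results of these data known.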

Additional observations from a re-analysis of the deposited data

Results flagged for a closer look

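The 4MPT level against the 2MPT level had opposite directions at the graft sites for HLA-B, with a log2 ratio of -1.52 in HIP and 0.74 in PFC, and for HLA-C, with -0.51 in HIP and 0.36 in PFC. Each value compares 1 library with 1 library over all human cells, their counting intervals were apart, and the difference between the sites was not tested. HIP_2MPT and PFC_4MPT, the higher libraries, had fewer median UMIs per cell (1253 and 1840) than PFC_2MPT (2359) and HIP_4MPT (2759). Their median mitochondrial shares were higher (3.77% and 7.31% against 2.35% and 3.02%). Their median human shares were lower (96.0% and 93.3% against 99.1% and 97.4%). The part of these in the opposite directions was not tested. Over 17201 genes, HIP minus PFC differences at 2MPT and 4MPT correlated with r = -0.24. Within neuron-like, astrocyte-like, progenitor-like and intermediate-progenitor-like cells, the HLA-C intervals overlapped at 1 site in each.

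IRF1 changed differently between 2MPT and 4MPT in astrocyte-like and neuron-like cells, by -2.61 on the log2 scale (SE 0.56, adjusted p = 0.00634 by edgeR's quasi-likelihood test of class and stage). In astrocyte-like cells IRF1 was lower at 4MPT at both sites, and in neuron-like cells it was lower in HIP (5.08 and 1.79 CPM) and higher in PFC (2.90 and 4.51 CPM). Progenitor-like cells gave 41.7 and 2.66 CPM in HIP and 28.99 and 19.9 in PFC, with overlapping intervals in PFC, and the unnamed cells gave 41.1 and 6.40 in HIP and 37.4 and 17.8 in PFC, so lower values were not limited to astrocyte-like cells. With classes from marker UMIs the difference was -1.47 (adjusted p = 0.90 by edgeR) and was not called.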

How the results depend on the processing

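None of the 9 genes was called between 2MPT and 4MPT over all human cells, but 1 was with DESeq2, 1 with no filter on low counts and 0 to 1 when 1 library was left out. Against D0, 6 were called at 2MPT, 3 after thinning to 1000 UMIs and 3 to 6 with 1 library left out, and 5 at 4MPT, with 3 to 5 when 1 was left out. In astrocyte-like cells 0 to 1 and in progenitor-like cells 0 to 2 were called with 1 library left out. PSMB8 and PSMB9 kept their calls against D0 in every setting run. Leaving out 1 library in turn, the log2 fold change of 4MPT against 2MPT ran from -1.09 to 0.51 for HLA-B, -0.33 to 0.31 for HLA-C, -0.24 to 0.046 for PSMB8 and -0.48 to 0.11 for PSMB9 in all cells, from -1.27 to 0.72 for HLA-B and -0.30 to 0.98 for B2M in neuron-like cells, from -1.15 to 0.42 for HLA-B in astrocyte-like cells, and from -2.46 to 0.32 for HLA-B and -0.089 to 0.60 for B2M in progenitor-like cells. Against D0 it ran from -0.38 to 0.063 for TAP2 at 2MPT, and from -0.0057 to 1.06 for HLA-F and -0.13 to 0.0086 for TAP1 at 4MPT. Other settings turned the sign of HLA-C (0.0035 with a human share over 90%) and HLA-E (-0.034 with thinned cells) at 4MPT against 2MPT, of TAP2 at 2MPT against D0 (0.38 with thinned cells) and of B2M in progenitor-like cells (-0.32 with classes from marker UMIs). None of the values with a turned sign passed the test, and the cause was not tested. Of the fold changes under settings that kept all libraries, 255 kept their direction and call, 2 gained a call, 5 lost it and 4 turned.

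With graft site as a replicate block, which for all cells was fitted on the graft libraries without D0 and so changed both choices at once, 0 of the 9 genes were called in all, neuron-like, astrocyte-like or progenitor-like cells, B2M had 0.81 in all cells, and the genes called over the whole table went from 457 to 733, 192 to 551, 332 to 623 and 56 to 123. The count of all genes called between 2MPT and 4MPT lay between 32 (without PFC_4MPT) and 1508 (without PFC_2MPT) for all cells, and was 92 in neuron-like and 14 in astrocyte-like cells with classes from marker UMIs, where the fit of class and stage fell from 502 to 24 genes and IRF1 lost both of its calls. Levels outside the counting interval of the clustered class numbered 76 of 198 with classes from marker UMIs and 11 of 207 at resolution 1.6. Depth limits HLA-F throughout, PSMB9 and NLRC5 in D0 and in progenitor-like cells, and HLA-E in neuron-like cells.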

Other observations

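A cluster of 1617 cells that the marker rule left unnamed, with oligodendrocyte lineage markers as its best list and OLIG1, EGFR and OLIG2 among its leading genes, held 67 cells of PFC_2MPT, 879 of HIP_4MPT, 642 of PFC_4MPT and 29 of HIP_2MPT. Its B2M level was 223 CPM in PFC_2MPT, 197 in HIP_4MPT and 276 in PFC_4MPT, its HLA-B level 8.94, 4.97 and 16.01 CPM and its PSMB9 level 26.8, 14.3 and 26.3 CPM. Its PSMB9 and B2M levels lay above those of neuron-like cells of the same libraries (0.965 to 1.92 and 30.5 to 77.0 CPM), beside 3.98 to 8.68 CPM of HLA-B in the latter.

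Host class I genes were measured in the mouse cells of the same suspensions. Their CPM count all UMIs of the host cells, human and mouse. Mouse H2-D1 stood at 4368 and 908 CPM in HIP and 1990 and 1015 in PFC at 2MPT and 4MPT. Mouse B2m stood at 1854 and 579 CPM in HIP and 892 and 558 in PFC, and mouse Psmb8 at 327 and 57.1 CPM in HIP and 105 and 72.1 in PFC. Each of these 3 was highest in HIP_2MPT, the graft library with the highest human HLA-B and HLA-C levels, and the classes of host cell were not separated. PFC_2MPT came next for all 3 mouse genes but had the lowest human HLA-B and HLA-C levels of the grafts (10.1 and 32.6 CPM). So the host and human levels did not share an order over the grafts.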
